A study of Homo sapiens with 24 samples.

Results

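The genes described here are 10 early response genes, EGR1, FOS, FOSL1, JUN, JUNB, JUND, MYC, IER2, DUSP1 and DUSP6, taken by name from both deposited count tables. They are 10 of 57992 genes used in each table. The cells were K562, a cell line from a chronic myelogenous leukaemia, in which doxycycline (50 ng/ml) turns on CRISPR interference and a guide sets the gene to be silenced. With sgDDX3 that gene is DDX3X, on the X chromosome, which encodes a helicase that helps ribosomes start on mRNAs. The control guide was sgGal4. Cells of each guide were taken at day 0, day 3 and day 14 of knockdown, and at each day ribosome footprints and cytosolic RNA were sequenced. That gave 12 groups of 2 libraries, 24 libraries in all: sgDDX3 at days 0, 3 and 14 and sgGal4 at days 0, 3 and 14, each in both assays. All groups shared the line, the interference system and the serum-containing medium. The labels list doxycycline for every sample, day 0 included, without stating whether the day 0 cells had received it. They name no starvation or stimulation.

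Immediate early genes are genes whose transcription a growth signal can switch on without new protein synthesis. In the textbook pathway RAS, RAF, MEK and ERK kinases activate ternary complex factors, which sit with serum response factor on promoters such as those of EGR1 and FOS. The proteins made are mostly transcription factors: EGR1 is a zinc finger protein, the FOS and JUN proteins pair to form AP-1, and MYC pairs with MAX to drive growth genes. DUSP1 and DUSP6 are phosphatases that switch the kinases off again, DUSP6 acting on ERK. K562 cells carry the BCR-ABL1 fusion kinase, which feeds this pathway continuously. The JUN genes, JUN, JUNB and JUND, have no intron.

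Depth was 10266619 to 43256563 counts per RNA library and 6223963 to 15240512 per footprint library. DDX3X itself checked the labels. At day 0 its RNA was at 175 and 185 CPM (counts scaled to library size) with sgDDX3, against 214 and 203 CPM with sgGal4, a log2 difference of -0.21 that did not pass (unadjusted p = 0.0358, adjusted p = 0.999). It was at 38.9 and 33.7 CPM with sgDDX3 at day 3, against 185 and 174 CPM with sgGal4. At day 14 it was at 134 and 101 CPM with sgDDX3, against 201 and 187 CPM with sgGal4. Of 10 erythroid markers, a lineage that K562 cells are known to lean to, 9 averaged above 1 CPM and HBG1 did not. How reads matching more than 1 gene were counted is not given, so the low count of HBG1 is uncertain. The summed RNA of the 10 markers was at 1370 to 1770 CPM in sgDDX3 libraries and 1410 to 1810 CPM in sgGal4 libraries. Summed markers of megakaryocytic, myeloid and lymphoid cells stayed at or below 24.4, 70.4 and 15.2 CPM in every RNA library. The fibroblast and epithelial list reached 102 CPM, from EPCAM and KRT8. Of the 9 erythroid markers tested, 0 were higher and 5 lower with sgDDX3 in RNA at day 3, among them HBE1 (-2.26), ALAS2 (-0.68) and KLF1 (-0.56 on the log2 scale). HBE1 was near the floor, at 0.685 and 0.492 CPM with sgDDX3, against 2.96 and 3.13 CPM with sgGal4. At day 14, 1 was higher and 3 were lower, HBE1 (-2.37) among them. Over all genes 7.68% were higher and 6.39% lower at day 3, and 8.44% and 6.18% at day 14. Their part in the results below was not tested.

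The RefSeq promoter table (GRCh38.p14) held 8 of the 10 genes, all but FOSL1 and MYC. The 250 bases upstream of each start were searched on both strands. The core of the cAMP response element, TGACG, was found in 7 of the 8 promoters (EGR1, FOS, JUN, JUNB, JUND, IER2 and DUSP1), against 21.2% of 35116 promoters. The CArG box, which serum response factor binds, was found in EGR1 alone, at 105 to 96 and at 83 to 74 bases upstream, against 1.16% of all promoters. The full element TGACGTCA, which holds the core on both strands, was found in JUND and DUSP1 (1.65% of all promoters). The GC box GGGCGG was in 5 of 8 (42.6%), the TATA box TATAAA in FOS, JUNB and DUSP1 (10.7%), the E-box CACGTG in DUSP1 (6.34%) and the AP-1 site TGANTCA in 0 of 8 (6.57%). These are matches of letters and not measured binding. Bases further upstream were not searched, in FOS as in the others, so a motif not found here may lie beyond the window. The promoters below are given because the results turn on their genes: EGR1 and IER2, whose RNA was lower with sgDDX3, JUN, whose RNA rose with time under both guides, and JUND, whose footprints were lower with sgDDX3. They are chr5:138465229-138465478 (plus strand), chr19:13150161-13150410 (plus), chr1:58784048-58784297 (minus) and chr19:18281623-18281872 (minus), read 5′ to 3′ along the gene, with TGACG on either strand and the CArG boxes in capitals.
EGR1: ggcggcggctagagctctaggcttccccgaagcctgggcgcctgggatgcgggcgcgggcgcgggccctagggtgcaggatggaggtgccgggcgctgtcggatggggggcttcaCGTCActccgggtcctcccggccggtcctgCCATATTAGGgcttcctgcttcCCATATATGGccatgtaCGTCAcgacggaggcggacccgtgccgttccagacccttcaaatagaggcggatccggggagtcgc
IER2: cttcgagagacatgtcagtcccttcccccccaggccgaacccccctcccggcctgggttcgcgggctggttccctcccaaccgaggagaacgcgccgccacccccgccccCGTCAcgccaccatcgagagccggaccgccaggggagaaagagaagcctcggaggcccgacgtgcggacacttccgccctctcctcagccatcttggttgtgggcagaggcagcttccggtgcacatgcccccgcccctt
JUN: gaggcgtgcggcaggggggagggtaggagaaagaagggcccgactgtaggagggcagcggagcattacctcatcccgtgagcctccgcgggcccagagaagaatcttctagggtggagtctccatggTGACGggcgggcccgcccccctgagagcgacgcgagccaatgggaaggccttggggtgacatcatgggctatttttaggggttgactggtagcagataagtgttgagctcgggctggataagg
JUND: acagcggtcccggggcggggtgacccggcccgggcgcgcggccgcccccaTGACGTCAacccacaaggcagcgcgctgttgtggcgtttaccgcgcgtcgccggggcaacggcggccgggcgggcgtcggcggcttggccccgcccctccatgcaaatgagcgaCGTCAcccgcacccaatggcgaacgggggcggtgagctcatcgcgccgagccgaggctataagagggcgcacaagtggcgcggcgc

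On GRCh38, EGR1 lies on chromosome 5 (138465479 to 138469303), FOS on chromosome 14 (75278828 to 75282230) and FOSL1 on chromosome 11 (65892049 to 65900545). JUN lies on chromosome 1 (58780791 to 58784047). JUNB (12791486 to 12793315), IER2 (13150411 to 13154911) and JUND (18279694 to 18281622) are all on chromosome 19. MYC lies on chromosome 8 (127735434 to 127742951), DUSP1 on chromosome 5 (172768096 to 172771195) and DUSP6 on chromosome 12 (89347235 to 89352501). In the RefSeq annotation JUNB overlaps HOOK2, and DUSP6 overlaps the readthrough gene POC1B-DUSP6, so the counts of both are uncertain.

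All 10 genes had counts in every RNA library, and 9 passed the filter on low counts in both assays. DUSP6 did not: it had 1 to 10 RNA counts a library (0.0903 to 0.563 CPM) and 0 to 2 footprint counts, with 4 of 12 footprint libraries at 0. FOS was close to the floor, with 10 to 62 RNA counts and 8 to 33 footprint counts a library, so its log2 differences between guides in RNA have standard errors of 0.36 to 0.38 and small ones were not detectable at this depth. MYC had 3075 to 16030 RNA counts, JUND 1985 to 6973 and EGR1 533 to 4015. The JUN genes have a single exon and could be compared per length. JUND RNA was at 82.9 to 106 CPM per kilobase over the 6 groups, JUNB at 10.4 to 16.9 and JUN at 3.13 to 7.32. The 3 ranges did not overlap, so the order JUND, JUNB, JUN held in every group.

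**Figure D1:**
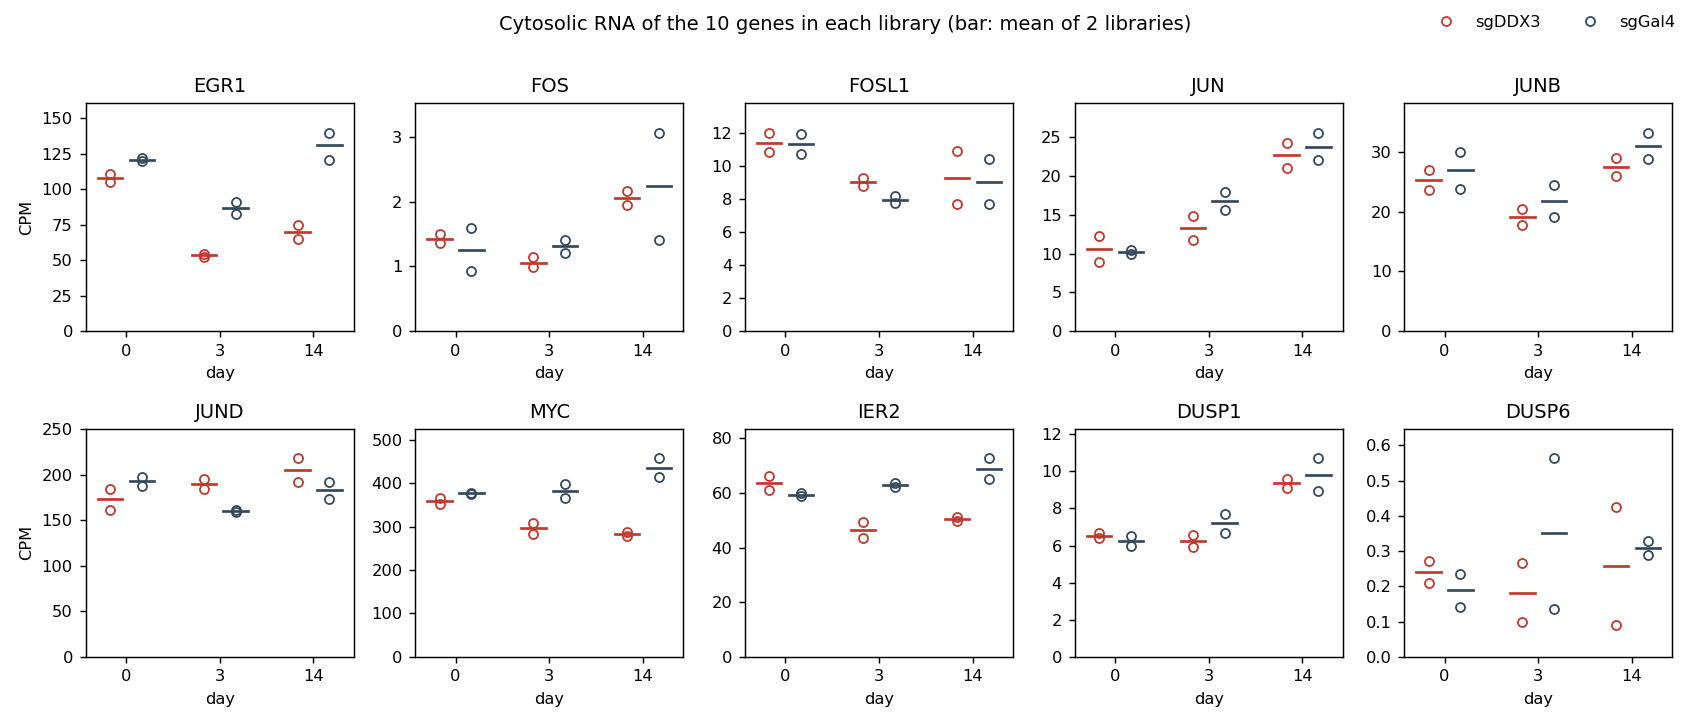
Cytosolic RNA of the 10 genes in CPM (linear axes from 0) at days 0, 3 and 14, sgDDX3 left of sgGal4; each circle is 1 library and each bar the mean of 2. EGR1, MYC and IER2 circles of sgDDX3 lie below those of sgGal4 at days 3 and 14, and JUN and DUSP1 are highest at day 14 under both guides.

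The first comparison asks whether RNA of these genes differed between the guides. At day 0 it did not pass for any of them: 0 of 9 were called by edgeR's quasi-likelihood test (0.00547% of all genes were called), 0 at an unadjusted p under 0.05, and 0 by DESeq2. At day 3, 3 of 9 were lower (6.39% of all genes) and 0 were higher (7.68%). At day 14, 3 of 9 were lower (6.18%) and 0 higher (8.44%). By an unadjusted p under 0.05, 1 was higher and 4 lower at day 3 and 0 higher and 3 lower at day 14, and DESeq2 called 1 higher and 3 lower at day 3 and 0 higher and 3 lower at day 14. The members called by edgeR were EGR1, MYC and IER2 at both days. The median log2 difference of the 9 was -0.30 at day 3 and -0.05 at day 14, against -0.01 over all genes tested at both days. In bulk samples, a smaller number of cells with a transcript and less of it per cell cannot be told apart.

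EGR1, the zinc finger factor with the CArG boxes printed above, was the most reduced of the 9 in RNA. At day 0 it had 111 and 105 CPM in sgDDX3 libraries, against 120 and 122 CPM in sgGal4 libraries. At day 3 it had 54.1 and 52.4 CPM with sgDDX3, against 91.3 and 82.9 CPM with sgGal4. By day 14 the values were 74.5 and 64.6 CPM with sgDDX3, against 140 and 121 CPM with sgGal4. The guides did not overlap at any of the 3 days. At day 0 the log2 difference was -0.17 ± 0.08 and did not pass (unadjusted p = 0.0625, adjusted p = 0.999). Both sgDDX3 libraries of day 3 and of day 14 lay below every sgGal4 library. On the log2 scale the EGR1 difference was -0.71 ± 0.09 at day 3 (SE, adjusted p = 1.09e-05), which is 1.64-fold lower. For day 14 it was -0.90 ± 0.09 (adjusted p = 9.74e-07), 1.87-fold lower. Both calls held in all 8 alternatives (-0.77 to -0.63 and -1.01 to -0.79).

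MYC, the growth regulator, was lower by a smaller factor. It had 365 and 352 CPM with sgDDX3 at day 0, against 375 and 378 CPM with sgGal4. At day 3 it had 282 and 309 CPM with sgDDX3, against 365 and 398 CPM with sgGal4. Day 14 libraries had 287 and 278 CPM with sgDDX3, against 457 and 414 CPM with sgGal4. All 4 later sgDDX3 libraries lay below all 6 sgGal4 libraries. The log2 difference of MYC was -0.37 ± 0.07 at day 3 (1.29-fold lower, adjusted p = 0.00132). It was -0.62 ± 0.07 at day 14 (1.54-fold lower, adjusted p = 6.38e-06). Both calls held in all 8 alternatives (-0.43 to -0.30 and -0.69 to -0.54).

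IER2, a nuclear protein of the early response, had a like difference at both days. Its RNA was at 43.7 and 49.3 CPM with sgDDX3 at day 3, against 62.1 and 63.8 CPM with sgGal4. Day 14 values were 51.4 and 49.7 CPM with sgDDX3, against 72.7 and 65.0 CPM with sgGal4. The guides did not overlap at these days, while at day 0 both sgDDX3 libraries (66.3 and 61.0 CPM) lay above both sgGal4 libraries (58.9 and 59.9 CPM). The log2 difference of IER2 was -0.45 ± 0.08 at day 3 (1.36-fold lower, adjusted p = 9.96e-04). It was -0.44 ± 0.09 at day 14 (1.35-fold lower, adjusted p = 0.00143). Both calls held in all 8 alternatives (-0.52 to -0.35 at each day).

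The AP-1 genes did not pass in RNA. JUN had 11.8 and 14.8 CPM with sgDDX3 at day 3, against 18.0 and 15.6 CPM with sgGal4, a log2 difference of -0.40 ± 0.14 (adjusted p = 0.0663). That of JUN passed without the low-count filter (-0.41, adjusted p = 0.0294) and without sgDDX3 replicate 2 (-0.54, adjusted p = 0.0342). JUND had the opposite sign, with 184 and 195 CPM in sgDDX3 libraries at day 3, against 159 and 161 CPM in sgGal4 libraries (0.24 ± 0.08, adjusted p = 0.0506). Its value crossed the threshold by DESeq2 (0.25, adjusted p = 0.0415), without the filter (0.24, adjusted p = 0.0453) and with a replicate block (0.25, adjusted p = 0.0487). The day 14 value of JUND was 0.17 ± 0.08 (adjusted p = 0.187) and passed without sgDDX3 replicate 2 (0.25, adjusted p = 0.041). JUNB was at -0.17 ± 0.13 (day 3) and -0.19 ± 0.13 (day 14), and FOSL1, a FOS relative, at 0.15 ± 0.16 and -0.02 ± 0.17. FOS, from few counts, was at -0.30 ± 0.38 and 0.05 ± 0.36, with 95% intervals of -1.04 to 0.43 and -0.65 to 0.76.

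DUSP1, the phosphatase of JNK, p38 and ERK, had 6.58 and 5.90 CPM with sgDDX3 at day 3, against 6.69 and 7.72 CPM with sgGal4. Its day 14 values were 9.58 and 9.12 CPM with sgDDX3, against 10.7 and 8.92 CPM with sgGal4. The log2 differences were -0.15 ± 0.15 (95% interval -0.45 to 0.15) and -0.03 ± 0.15 (-0.33 to 0.27), and neither passed. For DUSP6 no fold is given, since both guides were near the floor, with 1 to 7 RNA counts in the 6 sgDDX3 libraries and 2 to 10 in the 6 sgGal4 libraries.

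The second comparison asks whether the footprints on these mRNAs differed. None of 9 was called at day 0 (0.0101% of all genes by edgeR; 0 at an unadjusted p under 0.05 and 0 by DESeq2). At day 3, 3 of 9 were lower, EGR1, JUND and MYC (2.25% of all genes), and 0 higher (1.55%). Which direction had more calls over all genes at that day depended on single libraries: 65.6% of calls were higher without sgDDX3 replicate 2, against 12.4% without sgGal4 replicate 1 and 20.0% without sgGal4 replicate 2. At day 14, 3 of 9 were lower, EGR1, MYC and IER2 (1.29%), and 0 higher (2.11%). By an unadjusted p under 0.05, 0 were higher at either day and 3 and 4 were lower at days 3 and 14, and DESeq2 called 0 higher and 3 and 2 lower. The medians of the 9 were -0.19 and -0.17, against 0.02 and 0.00 over all genes.

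**Figure D2:**
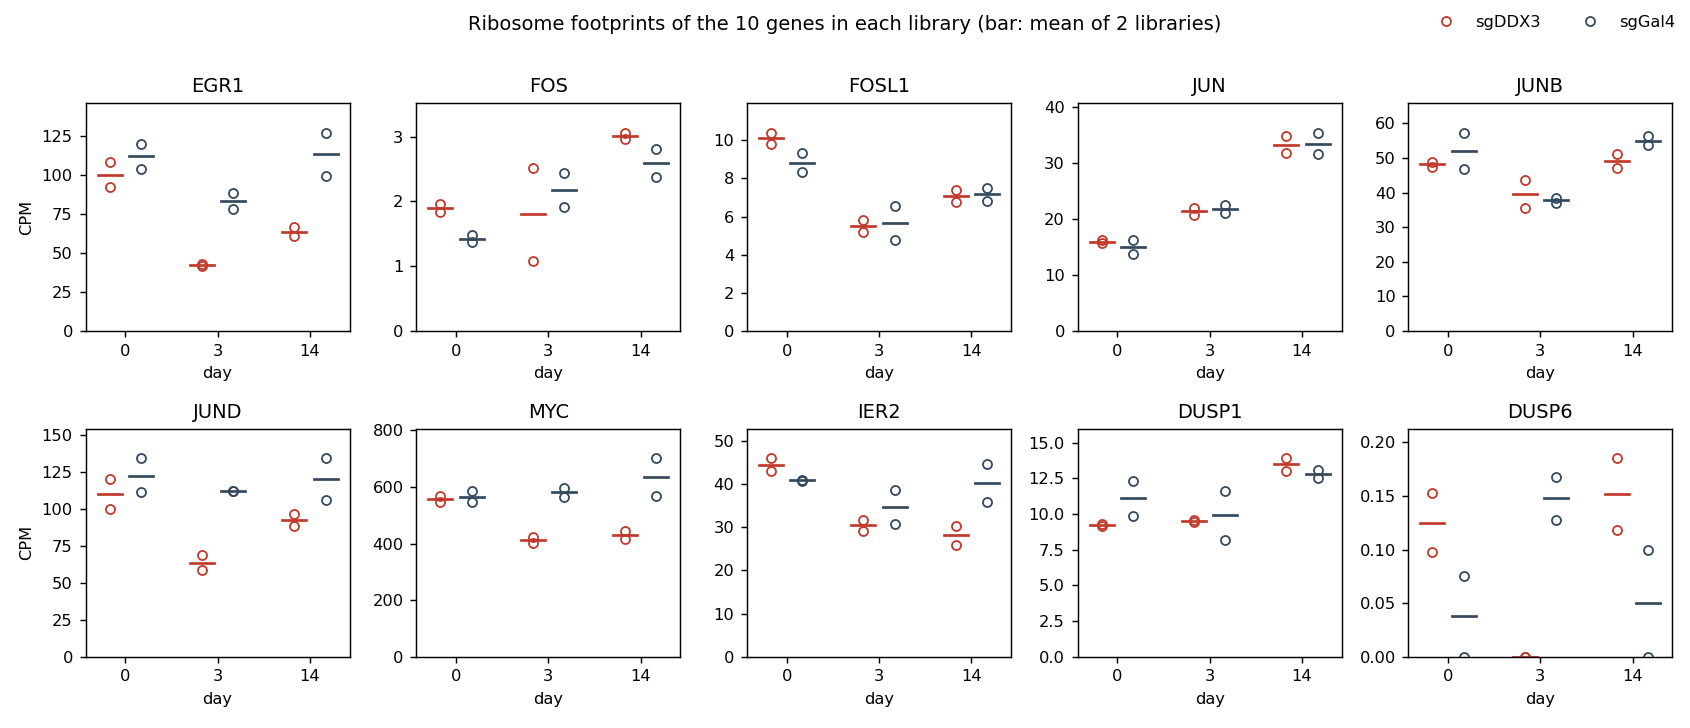
Ribosome footprints on the 10 genes in CPM (linear axes from 0) at days 0, 3 and 14, sgDDX3 left of sgGal4; each circle is 1 library and each bar the mean of 2. The sgDDX3 circles of EGR1, MYC and JUND lie below those of sgGal4 at days 3 and 14, while JUN, JUNB and DUSP1 lie close together.

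EGR1 footprints were at 41.8 and 42.6 CPM with sgDDX3 at day 3, against 88.2 and 77.9 CPM with sgGal4. At day 14 they were at 61.0 and 66.3 CPM with sgDDX3, against 127 and 99.5 CPM with sgGal4. The guides did not overlap at either day. The day 3 difference, -0.98 ± 0.14 on the log2 scale (1.97-fold lower, adjusted p = 0.00213), held in all 8 alternatives. The day 14 difference was -0.84 ± 0.13 (1.78-fold lower, adjusted p = 0.00353), and leaving out sgDDX3 replicate 1 ended that call (-0.79, adjusted p = 0.0534).

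MYC footprints were at 403 and 423 CPM with sgDDX3 at day 3, against 566 and 597 CPM with sgGal4, and at day 14 at 417 and 445 CPM with sgDDX3, against 701 and 567 CPM with sgGal4. The guides were apart at both days. The MYC footprint difference was -0.49 ± 0.10 on the log2 scale at day 3 (1.41-fold lower, adjusted p = 0.0238). Leaving out any 1 of the 4 libraries ended this call, with sgDDX3 replicate 1 (-0.46) or 2 (-0.54) or sgGal4 replicate 1 (-0.55) or 2 (-0.47) removed. The day 14 difference was -0.56 ± 0.10 (1.47-fold lower, adjusted p = 0.0113), and it failed when sgDDX3 replicate 1 (-0.52) or sgGal4 replicate 1 (-0.39) was removed.

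IER2 footprints at day 14 were at 25.9 and 30.2 CPM with sgDDX3, against 44.5 and 35.9 CPM with sgGal4 (-0.52 ± 0.13, adjusted p = 0.0481). DESeq2 did not make this call (-0.53, adjusted p = 0.0632), nor did edgeR with sgDDX3 replicate 1 (-0.42) or 2 (-0.64) or sgGal4 replicate 1 (-0.35) removed. At day 3, 31.7 and 29.2 CPM with sgDDX3 overlapped 38.5 and 30.7 CPM with sgGal4 (-0.19 ± 0.14, adjusted p = 0.496).

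JUND, the JUN family member that is kept at a high basal level, was the AP-1 gene with a footprint difference. At day 3 it had 68.5 and 58.8 CPM with sgDDX3, against 112 and 112 CPM with sgGal4. JUND at day 14 had 88.4 and 96.7 CPM with sgDDX3, against 134 and 106 CPM with sgGal4. The groups did not overlap at either day. Its log2 difference was -0.81 ± 0.14 at day 3 (1.76-fold lower, adjusted p = 0.00783). With sgGal4 replicate 1 (-0.83, adjusted p = 0.0592) or 2 (-0.83, adjusted p = 0.0514) removed it did not pass. For day 14 the difference was -0.37 ± 0.13 (adjusted p = 0.159). The day 14 value passed without the low-count filter (-0.40, adjusted p = 0.0201).

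The footprints of the other members did not pass. JUN was at 22.0 and 20.8 CPM with sgDDX3 at day 3, against 22.5 and 21.2 CPM with sgGal4 (-0.04 ± 0.13, 95% interval -0.29 to 0.22). JUNB was at 0.06 ± 0.12 at day 3 and -0.17 ± 0.12 at day 14, FOSL1 at -0.05 ± 0.21 and -0.01 ± 0.19, and DUSP1 at -0.08 ± 0.19 and 0.07 ± 0.17. FOS was at -0.34 ± 0.38 and 0.21 ± 0.32.

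**Figure D3:**
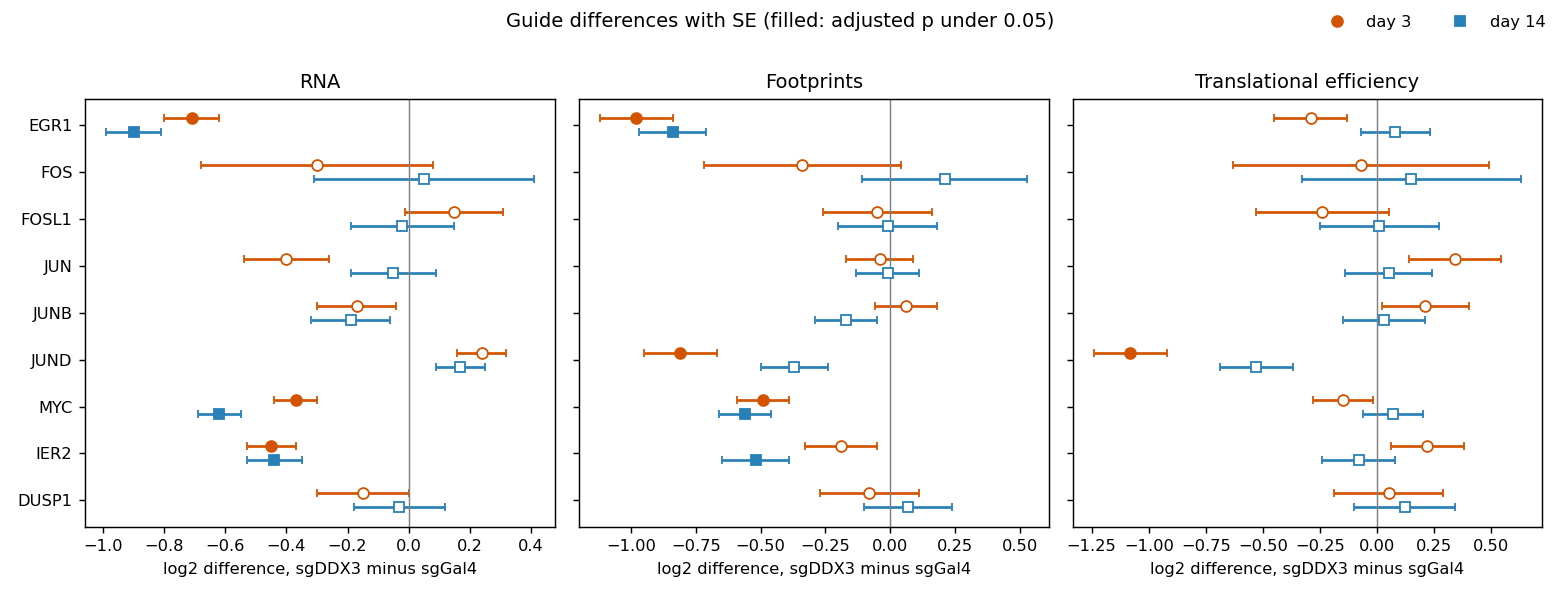
Log2 difference, sgDDX3 minus sgGal4, of the 9 tested genes in RNA, footprints and translational efficiency at day 3 (circles) and day 14 (squares), with SE bars; filled symbols had an adjusted p under 0.05. JUND lies right of 0 in RNA (0.24 at day 3) and left of 0 in footprints (-0.81), and EGR1 and MYC lie left of 0 in both.

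The third comparison asks whether footprints changed beyond RNA, as translational efficiency, the footprint difference minus the RNA difference in a joint model of all 24 libraries. At day 0 no member of 9 was called (0.00673% of all genes by edgeR; 0 at an unadjusted p under 0.05 and 0 by DESeq2). At day 3, 1 of 9 was lower, JUND (4.87% of all genes were lower), and 0 were higher (0.532%), the same counts as by an unadjusted p under 0.05 and by DESeq2. At day 14 none was called by edgeR (1.33% lower and 0.39% higher over all genes), 1 (JUND) had an unadjusted p under 0.05, and DESeq2 called that 1.

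The efficiency of JUND was 2.11-fold lower with sgDDX3 at day 3 (log2 difference -1.08 ± 0.16, adjusted p = 6.11e-05). Footprint CPM over RNA CPM, from group means and so without an SD, was 0.336 with sgDDX3 and 0.698 with sgGal4 at day 3. At day 0 the ratios were 0.636 with sgDDX3 and 0.634 with sgGal4, and at day 14 they were 0.451 with sgDDX3 and 0.655 with sgGal4. The day 3 difference held in all 12 alternatives (-1.18 to -0.96) and was the 253rd lowest of 14853 genes. The day 14 value, -0.53 ± 0.16, did not pass (adjusted p = 0.0865). It did pass by DESeq2 (-0.53, adjusted p = 0.0413), without the low-count filter (-0.54, adjusted p = 0.0183), with a replicate block (-0.52, adjusted p = 0.0473), and without sgDDX3 RNA replicate 2 (-0.63) or sgGal4 footprint replicate 2 (-0.69). The change of the difference between day 3 and day 14, 0.55 ± 0.22, did not pass (adjusted p = 0.831), as for all 9 members (0.0269% of all genes were called by edgeR; 1 member at an unadjusted p under 0.05 and 0 by DESeq2).

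**Figure D4:**
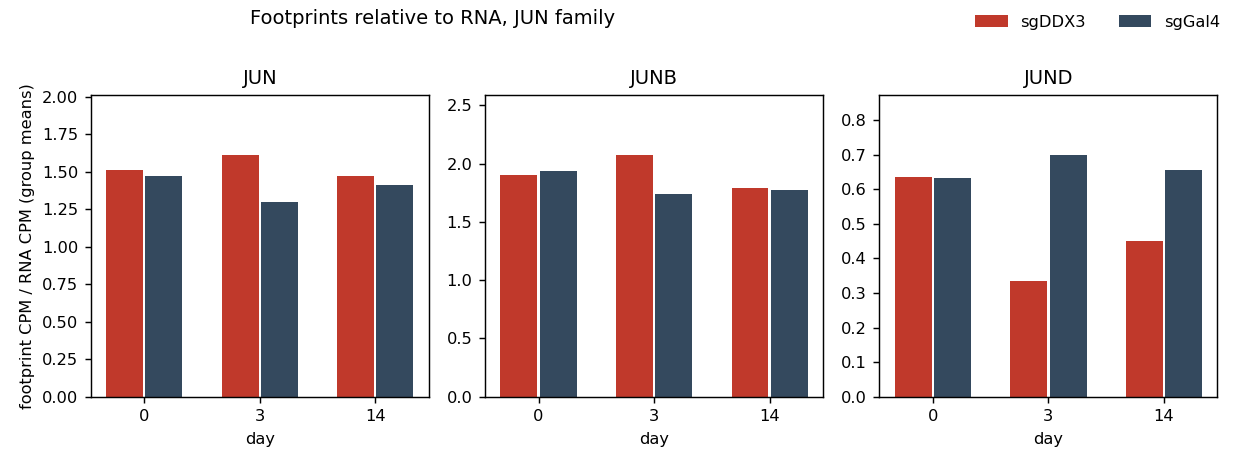
Footprint CPM divided by RNA CPM (means of 2 libraries each, linear axes from 0) for JUN, JUNB and JUND at days 0, 3 and 14, sgDDX3 left of sgGal4. JUND is at 0.336 with sgDDX3 and 0.698 with sgGal4 at day 3, while JUN and JUNB are higher with sgDDX3 at that day, differences that did not pass.

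JUN and JUNB, the close relatives of JUND, had efficiency differences of 0.34 ± 0.20 (95% interval -0.06 to 0.74) and 0.21 ± 0.19 (-0.17 to 0.58) at day 3, and neither passed. Their ratios of footprints to RNA were 1.61 with sgDDX3 and 1.30 with sgGal4 for JUN, and 2.07 with sgDDX3 and 1.74 with sgGal4 for JUNB. For EGR1 the efficiency difference was -0.29 ± 0.16 at day 3 and 0.08 ± 0.15 at day 14, and for MYC -0.15 ± 0.13 and 0.07 ± 0.13. For IER2 it was 0.22 ± 0.16 and -0.08 ± 0.16. The 95% intervals of MYC, -0.40 to 0.10 and -0.18 to 0.33, leave room for a small difference in either direction. FOSL1 was at -0.24 ± 0.29 at day 3, DUSP1 at 0.05 ± 0.24 and FOS at -0.07 ± 0.56.

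Whether the guide difference itself changed between days was tested next. Relative to day 0, the RNA difference was lower at day 3 for 2 of 9 members, EGR1 and IER2 (1.32% of all genes), and at day 14 for 3 of 9, EGR1, MYC and IER2 (1.8%). None of 9 was higher in either test by edgeR (2.37% and 2.66% of all genes). JUND was the 1 higher at an unadjusted p under 0.05 in each, and DESeq2 called it in the first. The change at day 14 was -0.74 ± 0.12 for EGR1 (adjusted p = 0.00107), -0.55 ± 0.10 for MYC (adjusted p = 0.00265) and -0.54 ± 0.12 for IER2 (adjusted p = 0.0112). Those of EGR1 and MYC held in all 12 alternatives. That of IER2 was lost without sgDDX3 day 0 replicate 1 (-0.48), sgGal4 day 0 replicate 1 (-0.51), sgGal4 day 0 replicate 2 (-0.55) or sgGal4 day 14 replicate 1 (-0.45).

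At day 3 the change was -0.55 ± 0.12 for EGR1 (adjusted p = 0.0137) and -0.55 ± 0.12 for IER2 (adjusted p = 0.0105). The EGR1 call was lost without sgDDX3 day 0 replicate 1 (-0.50), sgGal4 day 0 replicate 1 (-0.52), sgGal4 day 0 replicate 2 (-0.56) or sgGal4 day 3 replicate 1 (-0.46). The IER2 call was lost without sgDDX3 day 0 replicate 1 (-0.48), sgDDX3 day 3 replicate 1 (-0.45), sgGal4 day 0 replicate 1 (-0.52), sgGal4 day 0 replicate 2 (-0.56) or sgGal4 day 3 replicate 2 (-0.52). JUND was at 0.40 ± 0.12 (adjusted p = 0.0557) and passed by DESeq2 (0.41, adjusted p = 0.0282) and without the filter (0.39, adjusted p = 0.0308). Its change at day 14 was 0.33 ± 0.12 (adjusted p = 0.121) and passed without sgDDX3 day 14 replicate 2 (0.41, adjusted p = 0.0169).

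Between day 3 and day 14 no member's RNA difference changed by edgeR (0.164% of all genes were called) or by DESeq2, and 1, MYC (-0.25 ± 0.10), had an unadjusted p under 0.05. DDX3X itself did change between these days, by 1.57 ± 0.14 towards sgGal4 (adjusted p = 7.16e-06). In footprints no change of the guide difference passed for the 9 members (0.121%, 0.106% and 0.126% of all genes were called in the 3 contrasts). Unadjusted p-values were under 0.05 for 3 members between days 0 and 3, EGR1 (-0.81), JUND (-0.66) and MYC (-0.47). They were also under 0.05 for 3 between days 0 and 14, EGR1 (-0.67), MYC (-0.53) and IER2 (-0.65), and for 1, JUND (0.44), between days 3 and 14. DESeq2 called 1 in the first, EGR1 (-0.82, adjusted p = 0.0255), and 0 in the others.

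The change over time was tested within each guide, and the tests of the difference between guides are those just given. In sgDDX3 RNA, 4 of 9 were lower at day 3 than at day 0 (9.42% of all genes) and 0 higher (11.1%). At day 14, 3 were higher (13.4%) and 3 lower (12.8%). In sgGal4 RNA, 1 of 9 was higher (3.41%) and 1 lower (2.27%) at day 3, and 2 were higher (7.7%) and 0 lower (8.55%) at day 14. By an unadjusted p under 0.05, 0 were higher with sgDDX3 at day 3 and 0 lower with sgGal4 at day 14, and the same held by DESeq2.

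JUN, the best known partner of FOS in AP-1, rose with time under both guides. Its RNA in sgDDX3 libraries was at 12.3 and 8.85 CPM at day 0, 11.8 and 14.8 CPM at day 3 and 24.3 and 21.0 CPM at day 14. In sgGal4 libraries it was at 10.4 and 10.0 CPM at day 0, 18.0 and 15.6 CPM at day 3 and 25.6 and 22.1 CPM at day 14. Day 14 lay above day 0 in every library of both guides. The rise at day 14 was 1.07 ± 0.15 with sgDDX3 (adjusted p = 2.49e-05) and 1.20 ± 0.15 with sgGal4 (adjusted p = 2.17e-05) on the log2 scale, and both held in all 8 alternatives. At day 3 it was 0.25 ± 0.15 with sgDDX3 (adjusted p = 0.277) and 0.74 ± 0.15 with sgGal4 (adjusted p = 0.00525). The sgGal4 call at day 3 was lost without sgGal4 day 0 replicate 1 (0.75), day 0 replicate 2 (0.71) or day 3 replicate 1 (0.61). The change of the guide difference at day 3, -0.49 ± 0.22, did not pass (adjusted p = 0.254).

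DUSP1 also rose by day 14 under both guides, by 0.52 ± 0.16 with sgDDX3 (adjusted p = 0.0178) and 0.62 ± 0.15 with sgGal4 (adjusted p = 0.00884). In sgDDX3 libraries it was at 6.39 and 6.67 CPM at day 0 and 9.58 and 9.12 CPM at day 14. In sgGal4 libraries it was at 5.95 and 6.54 CPM at day 0 and 10.7 and 8.92 CPM at day 14. The sgDDX3 call was lost without day 0 replicate 1 (0.49), day 0 replicate 2 (0.55) or day 14 replicate 1 (0.49), and the sgGal4 call without day 0 replicate 1 (0.54) or day 14 replicate 1 (0.51).

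**Figure D5:**
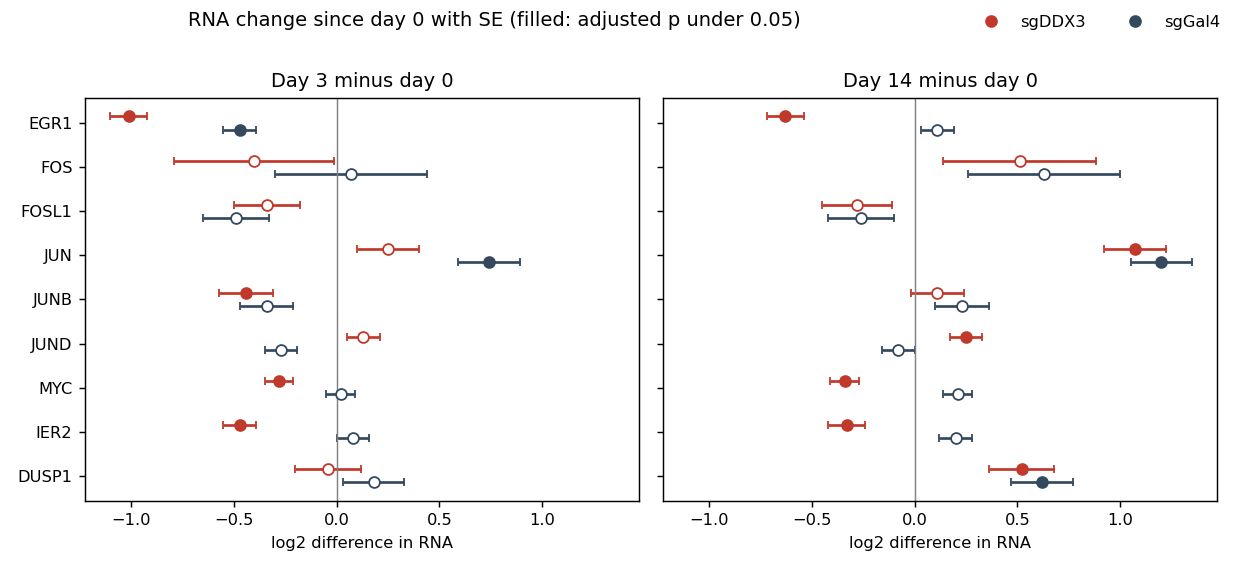
Log2 change of RNA since day 0 at day 3 (left) and day 14 (right), sgDDX3 above sgGal4 for each gene, with SE bars; filled symbols had an adjusted p under 0.05. JUN and DUSP1 lie right of 0 under both guides at day 14, and EGR1, MYC and IER2 lie left of 0 with sgDDX3 at both days.

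EGR1 fell by day 3 under both guides, by 1.01 ± 0.09 with sgDDX3 (adjusted p = 8.95e-08) and by 0.47 ± 0.08 with sgGal4 (adjusted p = 0.00233) on the log2 scale, and both held in all 8 alternatives. The day 14 level was still lower than that of day 0 with sgDDX3 (-0.63 ± 0.09, adjusted p = 2.34e-05), and with sgGal4 the change was 0.11 ± 0.08 (adjusted p = 0.45). MYC fell with sgDDX3, by 0.28 ± 0.07 at day 3 (adjusted p = 0.00773) and by 0.34 ± 0.07 at day 14 (adjusted p = 0.00131). The day 3 call was lost without sgDDX3 day 0 replicate 1 (-0.25) or day 3 replicate 1 (-0.21). With sgGal4 it was at 0.02 ± 0.07 at day 3 and 0.21 ± 0.07 at day 14 (adjusted p = 0.0507), which passed by DESeq2 (0.21, adjusted p = 0.0459) and without the filter (0.22, adjusted p = 0.0363).

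IER2 fell with sgDDX3 by 0.47 ± 0.08 at day 3 (adjusted p = 4.33e-04) and by 0.33 ± 0.09 at day 14 (adjusted p = 0.0062), the second lost without sgDDX3 day 0 replicate 1 (-0.27). With sgGal4 it was at 0.08 ± 0.08 and 0.20 ± 0.08. JUNB fell with sgDDX3 at day 3 (-0.44 ± 0.13, adjusted p = 0.0221), a call lost without day 0 replicate 1 (-0.33) or day 3 replicate 1 (-0.32), and was at -0.34 ± 0.13 with sgGal4 (adjusted p = 0.131). JUND rose with sgDDX3 by day 14 (0.25 ± 0.08, adjusted p = 0.0303), lost without day 0 replicate 2 (0.15) or day 14 replicate 1 (0.15), and was at -0.08 ± 0.08 with sgGal4. At day 3 with sgGal4, JUND was at -0.27 ± 0.08 (adjusted p = 0.0541), which passed by DESeq2 (-0.28), without the filter (-0.27) and with other size factors (-0.28), and FOSL1 at -0.49 ± 0.16 (adjusted p = 0.0713), which passed without the filter (-0.48).

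In footprints over time with sgDDX3, 5 of 9 were lower at day 3 than at day 0 (3.83% of all genes) and 0 higher (3.73%). At day 14, 1 was higher (4.69%) and 3 were lower (3.09%). With sgGal4, 1 was higher at day 3 (0.703%) and 1 at day 14 (1.54%), and 0 lower at either (0.561% and 0.93%). By an unadjusted p under 0.05, 1 was higher with sgDDX3 at day 3, and with sgGal4 3 were lower at day 3 and 0 at day 14. DESeq2 called 0 in each of these directions. JUN was the member higher each time. Its footprints in sgDDX3 libraries were at 16.2 and 15.7 CPM at day 0, 22.0 and 20.8 CPM at day 3 and 31.8 and 34.9 CPM at day 14. In sgGal4 libraries they were at 16.2 and 13.7 CPM at day 0, 22.5 and 21.2 CPM at day 3 and 35.5 and 31.6 CPM at day 14. The day 14 rise was 1.07 ± 0.13 with sgDDX3 (adjusted p = 4.21e-04) and 1.17 ± 0.12 with sgGal4 (adjusted p = 3.63e-04), and both held in all 8 alternatives. The day 3 call with sgGal4 (0.55 ± 0.12, adjusted p = 0.0468) was lost by DESeq2 (0.56, adjusted p = 0.106) and without day 0 replicate 1 (0.69), day 0 replicate 2 (0.45), day 3 replicate 1 (0.51) or day 3 replicate 2 (0.61).

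The members lower with sgDDX3 at day 3 were EGR1 (-1.24 ± 0.14), FOSL1 (-0.86 ± 0.20), JUND (-0.79 ± 0.14), IER2 (-0.55 ± 0.14) and MYC (-0.43 ± 0.10). EGR1 held in all 8 alternatives. JUND was lost without day 0 replicate 1 (-0.66). FOSL1 was lost by DESeq2 (-0.87) and, like IER2 and MYC, without any 1 of the 4 libraries, with values then of -0.95 to -0.79 for FOSL1, -0.61 to -0.48 for IER2 and -0.47 to -0.40 for MYC. FOSL1 footprints with sgGal4 were at -0.62 ± 0.18 at day 3 (adjusted p = 0.125), so the 2 guides had values of the same sign. At day 14 the lower members were IER2 (-0.67 ± 0.13), EGR1 (-0.65 ± 0.13) and MYC (-0.37 ± 0.10). IER2 was lost without day 0 replicate 2 (-0.62) or day 14 replicate 1 (-0.57), EGR1 without day 0 replicate 1 (-0.54) or day 14 replicate 1 (-0.60), and MYC with other size factors (-0.36), with a replicate block (-0.37) and without any 1 library (-0.41 to -0.33).

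The genes whose RNA profile over the 12 libraries lay nearest to 4 of the members were listed by the root-mean-square difference of centred log2 CPM, among 9793 other genes averaging at least 10 CPM. FOS, itself below that level, was set against 9794. For MYC, whose own profile varied by 0.222 around its mean, they were the histone gene H4C3 (0.061), IER2 (0.0827) and MID1IP1 (0.084). Histone genes share near-identical copies, so H4C3 is uncertain. For EGR1 (own variation 0.459) they were STARD8 (0.155), NRM (0.156) and LCP2 (0.166). For JUN (0.492) they were CYP3A5 (0.215), CSRNP1 (0.222), itself an early response gene, and SAT1 (0.223). For FOS (0.358) the nearest were IFT140 (0.235), KIFC1 (0.245) and ZFHX3-AS1 (0.246). These are descriptions with no test: the 12 libraries are 2 from each of 6 groups of guide and day, so a likeness can come from the group means alone.

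Of 37 other immediate early genes, 33 were tested in RNA. At day 3, 2 were higher and 3 lower with sgDDX3 (6.06% and 9.09%, against 7.68% and 6.39% of all genes). At day 14, 3 were higher and 8 lower (9.09% and 24.2%, against 8.44% and 6.18% of all genes; median log2 difference 0.04 and -0.04, against -0.01 over all genes at both days). ZFP36L2, which binds AU-rich mRNAs and promotes their decay, was higher at both days: 114 and 115 CPM with sgDDX3, against 78.1 and 74.1 CPM with sgGal4 at day 3, and 127 and 125 CPM with sgDDX3, against 75.5 and 77.0 CPM with sgGal4 at day 14 (0.59 ± 0.07 and 0.72 ± 0.07). Its efficiency was lower at both (-0.63 ± 0.14 and -0.58 ± 0.14, adjusted p = 0.00674 and 0.0308). The day 3 efficiency call was lost without sgDDX3 footprint replicate 2 (-0.42) or sgGal4 footprint replicate 1 (-0.53), and the day 14 call in 6 of the 8 fits that left out 1 library (-0.62 to -0.43). ID1, an inhibitor of helix-loop-helix factors, was lower in RNA at day 3 (-1.02 ± 0.17) and higher in efficiency (0.99 ± 0.25, adjusted p = 0.0169). Its efficiency call was lost without sgDDX3 RNA replicate 2 (0.82), sgGal4 RNA replicate 1 (0.83), sgDDX3 footprint replicate 2 (0.81) or sgGal4 footprint replicate 2 (0.93). The antiproliferative gene BTG2 (-0.49 ± 0.08) and the AP-1 partner ATF3 (-0.65 ± 0.12) were lower at day 14. In footprints 1 of 34 was lower (2.94%) and 0 higher at each day. Over all genes 2.25% were lower and 1.55% higher at day 3, with 1.29% and 2.11% at day 14. In efficiency 1 of 33 was higher and 1 lower at day 3 (3.03% each, against 0.532% and 4.87% of all genes). At day 14, 0 were higher and 1 lower in efficiency (3.03% lower, against 0.39% and 1.33%).

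The genes that lie between BCR-ABL1 and ERK include adaptors, a phosphatase and kinases. Of 27 tested, 8 were higher and 2 lower in RNA at day 3 (29.6% and 7.41%, against 7.68% and 6.39% of all genes). At day 14, 9 were higher and 1 lower (33.3% and 3.7%, against 8.44% and 6.18%). The medians were 0.09 and 0.14, against -0.01. Of 28 tested in footprints, 0 were higher and 2 lower at day 3 (7.14% lower, against 1.55% higher and 2.25% lower over all genes). At day 14, 0 were higher and 0 lower (against 2.11% and 1.29%). The footprint medians were -0.08 and -0.02, against 0.02 and 0.0 over all genes. The efficiency of the cascade genes was lower for 8 at day 3 (29.6%, against 4.87% of all genes) and higher for 0 (against 0.532%). At day 14 it was lower for 3 (11.1%, against 1.33%) and higher for 0 (against 0.39%). The medians were -0.22 and -0.12, against 0.03 over all genes. The adaptor GAB2 had 422 and 399 RNA CPM with sgDDX3 at day 3, against 253 and 234 CPM with sgGal4 (0.75 ± 0.07), and an efficiency difference of -0.86 ± 0.12. ABL1 was at 0.57 ± 0.07 in RNA and -0.65 ± 0.12 in efficiency, where the counts do not separate the fusion from the normal gene. The phosphatase PTPN11, which acts upstream of RAS, had 31.9 and 26.3 footprint CPM with sgDDX3 at day 3, against 46.7 and 49.4 CPM with sgGal4 (-0.73 ± 0.11), and an efficiency difference of -1.13 ± 0.13. At day 14 its efficiency difference was -0.78 ± 0.13.

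The JNK, p38 and ERK5 cascades include the kinases that act on JUN. Of 19 tested in RNA, 5 were higher and 0 lower at day 3 (26.3% higher, against 7.68% higher and 6.39% lower over all genes). At day 14, 8 were higher and 0 lower (42.1% higher, against 8.44% and 6.18%). The medians were 0.15 and 0.24, against -0.01 over all genes. Of 18 tested in footprints, 0 were higher and 1 lower at each day (5.56% lower). Over all genes 1.55% were higher and 2.25% lower at day 3, with 2.11% and 1.29% at day 14. The footprint medians were -0.01 and -0.1, against 0.02 and 0.0 over all genes. Of 18 tested in efficiency, 0 were higher and 3 lower at day 3 (16.7% lower, against 0.532% higher and 4.87% lower over all genes). At day 14, 0 were higher and 1 lower (5.56% lower, against 0.39% and 1.33%). MAP4K4, a kinase upstream of JNK, had 427 and 437 RNA CPM with sgDDX3 at day 3, against 195 and 186 CPM with sgGal4 (1.18 ± 0.08). Its footprints were at 51.2 and 44.9 CPM with sgDDX3, against 81.3 and 81.1 CPM with sgGal4 (-0.76 ± 0.10). The efficiency difference was -1.96 ± 0.13 at day 3 and -1.39 ± 0.12 at day 14.

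Of 22 genes of ERK feedback and output tested in RNA, 6 were higher and 2 lower at day 3 (27.3% and 9.09%). Over all genes the shares were 7.68% and 6.39%. At day 14, 4 were higher and 3 lower (18.2% and 13.6%, against 8.44% and 6.18%). The medians were 0.1 and 0.0, against -0.01 over all genes. Of 22 tested in footprints, 0 were higher and 1 lower at day 3 (4.55% lower, against 1.55% higher and 2.25% lower over all genes). At day 14, 1 was higher and 1 lower (4.55% each, against 2.11% and 1.29%). The footprint medians were -0.04 and -0.1, against 0.02 and 0.0 over all genes. Of 21 tested in efficiency, 0 were higher and 4 lower at day 3 (19.0% lower, against 0.532% higher and 4.87% lower over all genes). At day 14, 0 were higher and 1 lower (4.76% lower, against 0.39% and 1.33%). SPRY4, an inhibitor of receptor signalling, was lower in RNA at both days (-0.49 ± 0.09 and -0.43 ± 0.09), and the cytokine LIF was higher at both (0.77 ± 0.11 and 0.75 ± 0.11). At day 0, LIF was at 16.5 and 16.4 CPM with sgDDX3, against 11.4 and 10.7 CPM with sgGal4, so its guides were apart before the later days. DUSP7, a relative of DUSP6 that also acts on ERK, was higher in RNA at day 3 (0.42 ± 0.08) and lower in efficiency (-0.93 ± 0.17). SPRY2 was lower in efficiency at day 3 (-0.89 ± 0.17).

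Of 13 serum response and ternary complex genes and their coactivators, 4 were higher (30.8%) and 0 lower in RNA at each day. Over all genes 7.68% were higher and 6.39% lower at day 3, with 8.44% and 6.18% at day 14. In footprints 0 of 13 were higher and 0 lower at each day (medians -0.01 and -0.04, against 0.02 and 0.0 over all genes). Over all genes 1.55% of footprints were higher and 2.25% lower at day 3, with 2.11% and 1.29% at day 14. In efficiency 0 were higher and 4 lower at day 3 (30.8% lower, against 0.532% higher and 4.87% lower over all genes). At day 14, 0 were higher and 0 lower in efficiency (against 0.39% and 1.33%). The efficiency medians were -0.21 and -0.19, against 0.03 over all genes. The coactivators CREBBP and EP300 were both higher in RNA at day 3 (0.47 ± 0.07 each), as was CRTC3 (0.79 ± 0.09), and CREBBP and CRTC3 were lower in efficiency (-0.62 ± 0.11 and -1.01 ± 0.19). Of 14 AP-1 partners, 1 was higher and 0 lower in RNA at day 3 (7.14% higher, against 7.68% higher and 6.39% lower over all genes). At day 14, 0 were higher and 1, ATF3, was lower (7.14% lower, against 8.44% and 6.18%). Both calls were near the shares over all genes.

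Of 21 MYC network partners tested, 3 were higher and 3 lower in RNA at day 3 (14.3% each, against 7.68% and 6.39% of all genes). At day 14, 1 was higher and 5 were lower (4.76% and 23.8%, against 8.44% and 6.18%). MXD4, which competes with MYC for MAX, had 64.1 and 68.8 CPM with sgDDX3 at day 3, against 38.9 and 37.7 CPM with sgGal4 (0.78 ± 0.08), with an efficiency difference of -1.0 ± 0.16. Its RNA was also higher at day 14 (0.79 ± 0.08). Of the 21 partners, 0 were higher and 2 lower in efficiency at day 3 (9.52% lower, against 0.532% higher and 4.87% lower over all genes). At day 14, 0 were higher and 0 lower in efficiency (against 0.39% and 1.33%). Of 40 MYC targets, 2 were higher and 4 lower in RNA at day 3, and 3 higher and 6 lower at day 14 (medians -0.12 and -0.02, against -0.01). Over all genes 7.68% were higher and 6.39% lower at day 3 and 8.44% and 6.18% at day 14, and the counts of the targets at day 3, 5.0% and 10.0%, were near those shares. In footprints 1 was higher and 3 lower at day 3 (2.5% and 7.5%, against 1.55% and 2.25% of all genes). At day 14, 3 were higher and 1 lower (7.5% and 2.5%, against 2.11% and 1.29%). Nucleophosmin (NPM1) was lower in RNA at day 14 (-0.33 ± 0.06) and nucleolin (NCL) higher (0.44 ± 0.09). ODC1, the first enzyme of polyamine synthesis, had 65.6 and 56.5 footprint CPM with sgDDX3 at day 3, against 201 and 211 CPM with sgGal4, and an efficiency difference of -1.62 ± 0.13. Of the 40 targets, 0 were higher and 2 lower in efficiency at day 3 (5.0% lower, near the 4.87% of all genes, with 0.532% higher). At day 14, 0 were higher and 1 lower (2.5% lower, against 0.39% and 1.33%). The efficiency medians of the targets were 0.12 and 0.15, against 0.03 over all genes.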

How the data were processed

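Each assay had 1 table of raw counts for each gene, deposited by the authors without normalization. Per the labels' protocols, RNA came from cytosolic lysate and was depleted of ribosomal RNA for directional libraries, and footprints came from cycloheximide-fixed ribosomes digested with RNase I. STAR 2.7.5a, cutadapt 3.4, DESeq2, Bowtie2 2.4.1 and the build GRCh38 are named in the submitters' processing notes, with the counting tool, annotation and strand setting not given in the sources used here. The 45 Y-chromosome copies of pseudoautosomal genes were left out.

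Counts were tested with edgeR 4.0.16 in R 4.3.3 (quasi-likelihood F-test, TMM scaling within each assay, filterByExpr with a minimum count of 10, Benjamini-Hochberg adjustment over all genes, threshold 0.05), with all 12 libraries of an assay in a fit and all 24 for translational efficiency. This left 18287, 19780 and 14853 genes in RNA, footprints and both. Log2 differences carry a standard error (SE). The 95% intervals use a normal multiplier of that SE and are somewhat narrower than the F-test implies. For JUND RNA at day 14, for example, the interval was 0.01 to 0.33 with an unadjusted p of 0.0522 in the F-test. CPM use the TMM factors. Groups have 2 libraries, and nothing states that they were separate cultures, so p-values measure only how much these samples vary, which may be technical. Reads have no molecular identifiers, so depth covers counting error only. Alternatives were DESeq2 1.42.0, its size factors in edgeR, no low-count filter, a replicate block and leaving out each library. The scripts were tested on simulated data.

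The members and gene lists were chosen with earlier results of these data known. All members are named; of other lists, up to 4 genes a comparison with the smallest p could be named, and those printed held in every alternative that gave an adjusted p, save where the text says otherwise, chosen so after their values were seen. Promoters are those of RefSeq.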

Additional observations from a re-analysis of the deposited data

Results flagged for a closer look

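The difference between the guides in RNA itself changed between days for 3 members, by the test of that change in edgeR. From day 0 to day 14 it moved by -0.74 for EGR1 (adjusted p = 0.00107), by -0.55 for MYC (adjusted p = 0.00265) and by -0.54 for IER2 (adjusted p = 0.0112), on the log2 scale. From day 0 to day 3 it moved by -0.55 for EGR1 (adjusted p = 0.0137) and by -0.55 for IER2 (adjusted p = 0.0105). The day 14 calls of EGR1 and MYC held in all 12 alternatives, and that of IER2 was lost in 4 of 12. The day 3 calls were lost in 4 of 12 for EGR1 and 5 of 12 for IER2. Every loss came from leaving out a library. Groups of 2 libraries were too small to look for single outlying libraries.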

How the results depend on the processing

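Of 43 calls on members, 20 held in every alternative and 23 were lost in at least 1, mostly by leaving out a library, and 17 results passed only in an alternative. None reversed. Of 119 results on list genes, 66 held in every alternative. Without the low-count filter, members called numbered 5 in RNA between guides at day 3 (3 with it), 4 in sgGal4 RNA at day 3 (2), 3 and 2 for the change of the footprint guide difference at days 3 and 14 (0 and 0), 3 in sgGal4 footprints at day 3 (1) and 1 in efficiency at day 14 (0). DESeq2 called 1 for the change of the footprint difference at day 3, 0 in sgGal4 footprints at day 3 and 1 in efficiency at day 14. The replicate block called 1 in efficiency at day 14 (JUND, -0.52), raised JUND RNA at day 3 past the threshold (0.25), and lost MYC footprints in sgDDX3 at day 14. To see whether replicate numbers pair the guides, the log2 difference of replicate 1 minus replicate 2 was taken for each gene and guide. Over genes, these differences correlated between the 2 guides by -0.16, 0.19 and 0.36 in RNA at days 0, 3 and 14. In footprints they correlated by 0.15, 0.13 and -0.09. The sign differed between days, so the numbers were not taken to pair the libraries. In RNA at day 14 (0.36) libraries of the same number did vary partly together. The replicate block was shared by all days, so pairing within a day was not tested. Crossing the numbers at day 0, chosen after seeing the data, called 0 members in RNA.

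Leaving out 1 library gave 0 to 2 members for the change of the RNA guide difference at day 3, 2 to 4 in sgDDX3 RNA at day 3, and 1 to 2 in sgGal4 RNA at each of days 3 and 14. In footprints it gave 1 to 2 between guides at day 3, 0 to 3 at day 14, 1 to 2 in sgDDX3 at day 3, 1 to 3 in sgDDX3 at day 14 and 0 to 0 in sgGal4 at day 3. In efficiency at day 14 it gave 0 to 1. The cause was not tested.

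Counts over all genes moved by more than 1.5 times in some settings. Without the low-count filter, footprint calls between guides were 282, 1594 and 1221 at days 0, 3 and 14, against 2, 752 and 672 with it, and 963 and 1249 in sgGal4 over time at days 3 and 14, against 250 and 488. Those for the change of the footprint guide difference were 643, 384 and 471 (days 3 and 14 against day 0, then 14 against 3), against 24, 21 and 25, and DESeq2 called 112, 77 and 81. The same setting gave 33 in RNA and 17 in efficiency at day 0, against 1 and 1, and 119 and 61 for the change between days 3 and 14, against 30 and 4. For that change DESeq2 called 15 in efficiency, and in footprints a replicate block gave 59 and other size factors 39. At day 0 in footprints DESeq2 called 16 and the block 1.

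Leaving out 1 library, footprint calls between guides were 121 without sgGal4 replicate 1, 140 without sgGal4 replicate 2 and 413 without sgDDX3 replicate 2 at day 3. At day 14 they were 143 without sgDDX3 replicate 1, 401 without sgDDX3 replicate 2 and 234 without sgGal4 replicate 1. RNA calls were 1383 and 1342 without sgGal4 replicate 1 or 2 at day 3, against 2574, and 1556 and 1076 at day 14, against 2674. Efficiency calls were 485 without sgDDX3 footprint replicate 2 and 452 without sgGal4 footprint replicate 1 at day 3, against 803. At day 14 they were 128 and 120 without sgGal4 RNA replicate 1 or 2, 133 without sgDDX3 footprint replicate 1 and 143 without sgGal4 footprint replicate 1, against 255. For the change of the RNA guide difference they were 255 to 612 at day 3, against 676, and 342 to 1581 at day 14, against 816. Over time within a guide, they were 2065 to 2960 in sgDDX3 RNA at day 3, against 3746, and 2849 to 5089 at day 14, against 4791. In sgGal4 RNA they were 101 to 672 at day 3, against 1038, and 983 to 1340 at day 14, against 2971. In sgDDX3 footprints they were 361 to 1342 at day 3, against 1494, and 266 to 741 at day 14, against 1539, and in sgGal4 footprints 12 to 91 at day 3, against 250, and 43 to 337 at day 14, against 488. For the change of the footprint guide difference they were 6 to 184 at day 3, against 24, and 0 to 74 at day 14, against 21. For the change between days 3 and 14 they were 10 to 339 in RNA, against 30, 17 to 147 in footprints, against 25, and 0 to 15 in efficiency, against 4. Depth limits FOS and DUSP6, whose counts stayed at or below 62 and 10 in RNA.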
